A study of Mus musculus with 12 samples.

Results

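Escapee genes are X-linked genes known from earlier work to stay transcribed from the inactive X chromosome of female mammals. The 6 mouse genes described here are Kdm6a, Ddx3x, Eif2s3x, Kdm5c, Pbdc1 and 5530601H04Rik. They were chosen by name, for that reputation, with earlier results of these data known. The count files hold 22556 genes, of which 908 are X-linked. For 3 of the 6 (Kdm6a, Ddx3x and Eif2s3x) both parental copies could be read, as they could for 319 X-linked genes in all. Kdm5c, Pbdc1 and 5530601H04Rik could be followed through their total counts only.

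The RNA came from the chromatin fraction of iXist-ChrX cells, a female mouse embryonic stem cell line with a 129S and a Castaneus X. In every line the 129S copy of Xist has a TetOn promoter in place of its own, so that doxycycline (Dox) switches Xist on from that chromosome. Each pair of libraries holds cells at 0 h (NoDox) and cells after 24 h in 1.0 to 1.5 µg/mL Dox. The WT line, with no further deletion, gave 1 pair. The XistDelm6A/T1_11C line, which lacks the m6A region near the 5′ end of Xist, gave 2 replicate pairs of 1 clone. XistDelA, which lacks the A-repeat of Xist, gave 1 pair from each of 3 clones, C1, 2C2 and C11. The deposited data of C11 carry another deletion designation than those of C1 and 2C2, and the 3 were kept as 1 group by label, so that clone and designation cannot be told apart in C11. These are cultured cells, grown on fibroblast feeders that were removed before the RNA was taken, and 1 day into induction, WT has no replicate, and the m6A-region deletion rests on 1 clone, so that clone and deletion cannot be told apart there.

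Xist RNA coats the chromosome it is made from and, through proteins that bind its repeats, recruits factors that shut down transcription, with the A-repeat needed for most of this silencing. Escapee genes keep a share of their expression from the coated chromosome, and many belong to pairs of X and Y genes whose dose matters in both sexes. Kdm6a encodes a demethylase that removes the Polycomb methyl mark from histone H3, Kdm5c a demethylase that removes methyl marks of active promoters, Ddx3x an RNA helicase of the DEAD-box family, and Eif2s3x the gamma subunit of the translation initiation factor that brings the initiator tRNA to the ribosome. 5530601H04Rik is annotated as a processed transcript without a coding frame.

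The 12 libraries held 18893447 to 36007145 read pairs on genes (median 26552191), of which 44.6% to 47.1% could be assigned to a parental genome. The 2 genomes were told apart by Xist, since 98.2% to 99.9% of its assigned counts fell in 1 of the columns in every library, taken here as 129S. Xist stood at 297.5 CPM (counts scaled to each library's total on genes) in WT without Dox and at 5514 with Dox. In the XistDelm6A/T1_11C pairs it went from 100.1 to 3140 and from 85.59 to 4576 CPM. The XistDelA clones with Dox held less Xist RNA, 1543 CPM in C1, 1267 in 2C2 and 1600 in C11, from 123.7, 125.7 and 158.2 without Dox. The part of this lower Xist level in the results for XistDelA was not tested.

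The libraries carried the label's cell type. Of 8 stem cell markers 7 were detected in every library, with a summed level of 1209 to 2112 CPM (median 1723) and Zfp42 the most abundant in 10 libraries, Esrrb in the other 2. Sox2 had 0 counts in all 12, which allows up to 0.00970 CPM over the libraries together; in the annotation used, its span lies inside that of Sox2ot on the same strand. The 8 fibroblast markers summed to 4.93 to 14.7 CPM (median 10.6), led by Col1a2 or Thy1, with Lum at 0 in 10 libraries. The stem cell sum was lowest in the second XistDelm6A/T1_11C pair, 1317 without and 1209 with Dox. In the first pair it went the other way, from 1708 to 2112, the highest of the 12. The fibroblast sum was also lowest in the second pair, 6.62 without and 4.93 with Dox. The part of these differences between the 2 pairs in the results below was not tested.

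The 6 genes are spread over the X, in mm10 coordinates. Ddx3x spans 13281021 to 13293983 and Kdm6a 18162666 to 18279358, both on the plus strand. Eif2s3x spans 94188708 to 94212651 on the minus strand, with its start 9271 kb from that of Xist. On the far side of Xist, 5530601H04Rik (105040853 to 105070124, minus strand) and Pbdc1 (105079755 to 105117090, plus strand) are neighbours that point away from each other, with 9.63 kb between their annotated starts, and Kdm5c lies at 152233226 to 152279099 on the plus strand. No other gene of the count files overlaps any of the 6 on either strand.

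That position goes with which members could be read by allele. Without Dox the mean 129S share of allelic counts over the 6 uninduced libraries was 55.1% ± 1.01 for Kdm6a, 49.2% ± 1.25 for Ddx3x and 39.3% ± 3.27 for Eif2s3x (SD, n = 6). For Kdm5c it was 0.400%, with 0.807% the highest of the 6; with Dox, 1 library had 0 of 987 counts, which allows up to 0.304%. Pbdc1 had an uninduced mean of 0.569% and a highest value of 0.941% (1.35% with Dox), and 5530601H04Rik had 0.425% and 0.560%. Of 192 genes beyond the start of Xist with at least 10 allelic counts per library, 13 had a 129S share from 0.1 to 0.9 as a fraction, and the median share of such genes in a library ran from 0% to 0.961%. The 3 distal members share that near absence of 129S counts with their surroundings, before and after Dox, so their allelic counts say nothing of escape. Whether 129S sequence is missing there or its reads were not assigned was not tested.

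The promoters show how different the members are at their start sites. All 6 matched an entry of the RefSeq promoter table (build GRCm38.p6), each 250 bases before to 50 after the start; the window holds 63.0% G and C in Kdm6a, 60.0% in Ddx3x, 57.0% in Eif2s3x, 49.3% in Pbdc1, 47.0% in Kdm5c and 46.7% in 5530601H04Rik, against a median of 52.7% over all promoters. CpG pairs numbered 25 in Ddx3x, 21 in Kdm6a and in Eif2s3x, 20 in Pbdc1, 13 in Kdm5c and 11 in 5530601H04Rik, against a median of 7. Printed here are the 3 members with allelic values and Kdm5c, which holds matches to 2 motifs side by side, at chrX:18162325-18162624 (plus strand), chrX:13280772-13281071 (plus strand), chrX:94212602-94212901 (minus strand) and chrX:152232977-152233276 (plus strand), with motif matches in capitals.
Kdm6a: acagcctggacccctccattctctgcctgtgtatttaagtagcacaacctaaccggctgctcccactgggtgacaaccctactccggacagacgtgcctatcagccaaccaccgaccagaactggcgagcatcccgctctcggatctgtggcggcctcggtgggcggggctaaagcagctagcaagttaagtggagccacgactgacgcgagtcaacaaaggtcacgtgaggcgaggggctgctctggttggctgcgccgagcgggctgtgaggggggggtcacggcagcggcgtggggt
Ddx3x: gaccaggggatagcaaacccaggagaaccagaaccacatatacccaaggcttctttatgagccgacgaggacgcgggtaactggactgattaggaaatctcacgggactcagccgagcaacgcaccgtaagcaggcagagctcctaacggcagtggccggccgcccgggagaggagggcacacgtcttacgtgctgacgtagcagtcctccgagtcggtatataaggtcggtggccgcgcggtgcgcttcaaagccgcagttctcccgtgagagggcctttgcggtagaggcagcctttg
Eif2s3x: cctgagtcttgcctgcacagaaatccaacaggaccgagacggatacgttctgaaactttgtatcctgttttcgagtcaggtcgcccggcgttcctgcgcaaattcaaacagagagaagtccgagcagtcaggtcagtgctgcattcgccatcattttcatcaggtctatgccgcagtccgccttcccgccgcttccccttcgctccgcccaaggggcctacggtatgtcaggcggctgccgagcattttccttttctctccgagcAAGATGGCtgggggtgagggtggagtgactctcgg
Kdm5c: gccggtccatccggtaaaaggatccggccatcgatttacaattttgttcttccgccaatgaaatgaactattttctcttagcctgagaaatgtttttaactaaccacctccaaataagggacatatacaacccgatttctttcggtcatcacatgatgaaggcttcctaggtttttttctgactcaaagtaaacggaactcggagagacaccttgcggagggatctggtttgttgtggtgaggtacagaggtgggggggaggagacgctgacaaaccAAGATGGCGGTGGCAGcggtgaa

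The capitals mark AAGATGGC in Eif2s3x, from base 16 of the transcript, and in Kdm5c, from base 28, followed there without a gap by GGTGGCAG from base 36. Searched on both strands of 32851 promoters, the YY1 core AANATGGC was present in 6.05%, and 2 of the 6 members held it. The CTCF core GGNGGCAG was in 12.6% of promoters and in Kdm5c alone of the 6. The ETS core CCGGAAG was in 8.86% of promoters, in 5530601H04Rik and, on the opposite strand, in Pbdc1. The NRF1 word GCGCATGCG (1.75%) and the SP word GGGGCGGGG (11.4%) were in 0 of the 6. A match of letters is a description and not a bound site.

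The question for the 3 readable members is how much of their 129S share was left after a day of Xist RNA, and whether the deletions in Xist altered that. In WT, the Kdm6a 129S share was 53.4% without Dox (6365 of 11922 allelic counts, 95% Wilson interval 52.5 to 54.3) and 50.0% with Dox (6284 of 12565, 49.1 to 50.9). In XistDelm6A/T1_11C it was 55.4% and 52.2% in the first pair and 56.4% and 53.0% in the second. In XistDelA it was 55.0% and 55.5% in C1, 54.7% and 54.3% in 2C2, and 55.6% and 54.3% in C11. The share of this demethylase gene was thus about 3 points lower with Dox in WT and in both XistDelm6A/T1_11C pairs, where the Wilson intervals of the pair did not overlap, and nearer to its start in the XistDelA clones, where they did. The 95% Wald interval of the difference itself lay below 0 in C11 (-2.57 to -0.0994 points) and held 0 in C1 and 2C2. These intervals cover counting error only. In bulk RNA, fewer cells expressing a copy and less RNA per cell cannot be told apart.

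Ddx3x, the helicase gene, had a 129S share of 48.7% without Dox in WT (1873 of 3843 allelic counts, 95% Wilson interval 47.2 to 50.3) and 41.0% with Dox (1322 of 3221, 39.4 to 42.8). The XistDelm6A/T1_11C pairs differed from each other, with 47.9% and 39.9% in the first and 49.9% and 46.7% in the second. In XistDelA the values were 48.5% and 49.8% in C1, 48.9% and 49.7% in 2C2, and 51.4% and 51.1% in C11. WT and the first XistDelm6A/T1_11C pair thus dropped by 7.69 and 7.97 points with Dox, the second dropped by 3.13 points with overlapping intervals, and every XistDelA clone stayed within 1.34 points of its start.

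Eif2s3x, the initiation factor gene, began with a lower 129S share and fewer counts. In WT it was 36.9% without Dox (479 of 1297 allelic counts, 95% Wilson interval 34.3 to 39.6) and 36.3% with Dox (459 of 1264, 33.7 to 39.0). In XistDelm6A/T1_11C it was 44.1% and 39.1% in the first pair and 39.9% and 34.2% in the second. In XistDelA it was 35.6% and 39.5% in C1, 37.3% and 41.4% in 2C2, and 41.9% and 43.5% in C11. The share was lower with Dox in WT and both XistDelm6A/T1_11C pairs and higher in all 3 XistDelA clones, but the intervals of the 2 libraries overlapped in each of the 6 pairs, and uninduced shares already ranged from 35.6% to 44.1%.

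**Figure D1:**
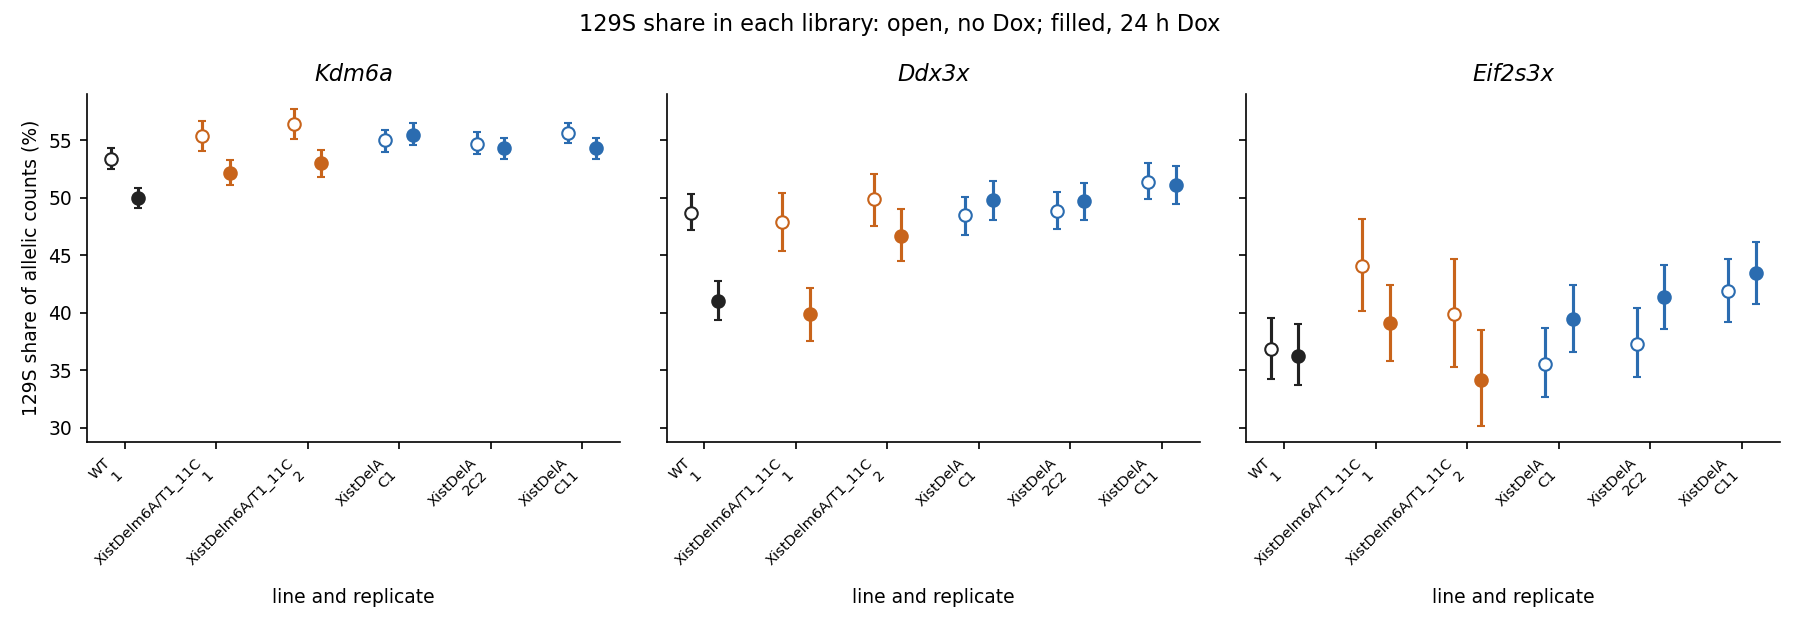
Share of allelic counts from the 129S chromosome (y axis, percent) in each library, by line and replicate (x axis), for Kdm6a, Ddx3x and Eif2s3x; open points are without Dox, filled points after 24 h of Dox, and bars are 95% Wilson intervals, counting error only. Ddx3x in WT goes from 48.7% to 41.0%, while the 3 XistDelA clones end between 49.7% and 51.1%.

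Set beside the chromosome, these losses were small. The median change in 129S share over the 319 readable X-linked genes was -19.9 points in WT, -15.4 and -12.4 points in the XistDelm6A/T1_11C pairs, and -1.70, -0.697 and -3.38 points in XistDelA C1, 2C2 and C11. In WT, 91.5% of the readable X-linked genes lost more share than Kdm6a, 85.0% lost more than Ddx3x and 93.1% lost more than Eif2s3x. In the XistDelm6A/T1_11C pairs the corresponding values were 89.7% and 79.2% for Kdm6a. For Ddx3x they were 78.4% and 80.5%, and for Eif2s3x 87.1% and 71.1%. In WT Kdm6a kept 93.7% of its uninduced 129S share, Ddx3x 84.2% and Eif2s3x 98.3%. The 3 members therefore sat among the genes with the least loss without being the extreme of the chromosome.

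In WT the ratio of the 2 copies moved away from 129S for Kdm6a and Ddx3x. On the log2 scale of the ratio of 129S to Castaneus counts, the WT change was -0.20 ± 0.05 (SE) for Kdm6a (edgeR, Benjamini-Hochberg adjusted p = 0.00748, lower in 1 of 1 pair). For Ddx3x it was -0.45 ± 0.08 (edgeR, Benjamini-Hochberg adjusted p = 3.6e-06, lower in 1 of 1 pair). Eif2s3x gave -0.04, with a 95% interval of -0.29 to 0.21 (edgeR, Benjamini-Hochberg adjusted p = 0.989). The call was thus made for 2 of 3 members, against 166 of 319 X-linked genes (52.0%) and 15 of 12861 autosomal genes (0.117%); the members' share is close to the X-linked one. The single WT pair borrows the spread of the other pairs and is assumed to vary like them, and these p-values measure spread between samples. Without the pairing of libraries as a block, 0 members passed in WT (Kdm6a adjusted p = 0.94 and Ddx3x 1 by edgeR with Benjamini-Hochberg), beside 92 X-linked genes.

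In XistDelm6A/T1_11C the same members passed. The change was -0.19 ± 0.04 for Kdm6a (edgeR, Benjamini-Hochberg adjusted p = 3.9e-04, lower in 2 of 2 pairs). Ddx3x gave -0.31 ± 0.07 (edgeR, Benjamini-Hochberg adjusted p = 0.00169, lower in 2 of 2 pairs). The Eif2s3x estimate was -0.32 with a 95% interval of -0.57 to -0.07 (edgeR, Benjamini-Hochberg adjusted p = 0.315, lower in 2 of 2 pairs). The 2 of 3 members called stand against 170 of 319 X-linked genes (53.3%) and 0.280% of autosomal genes. Ddx3x rested on the first pair, since without it the value was -0.18 (adjusted p = 0.59, edgeR, Benjamini-Hochberg) and 91 X-linked genes were called. Without the block 0 members passed (adjusted p = 0.27 for Kdm6a and 0.9 for Ddx3x, edgeR, Benjamini-Hochberg), beside 87 X-linked genes.

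In XistDelA no member passed in either direction. Kdm6a gave -0.02 (95% interval -0.08 to 0.03, edgeR, Benjamini-Hochberg adjusted p = 0.904) and was lower in 2 of 3 clones. Ddx3x gave 0.03 (-0.05 to 0.12, edgeR, Benjamini-Hochberg adjusted p = 0.915) and was higher in 2 of 3 clones. Eif2s3x gave 0.18 (0.03 to 0.34, unadjusted p = 0.017 and edgeR, Benjamini-Hochberg adjusted p = 0.39) and was higher in 3 of 3 clones. The 0 of 3 members by edgeR, 1 of them at an unadjusted p under 0.05, stand against 17 of 319 X-linked genes called lower (5.33%) and 0.342% of autosomal genes. That X-linked count was 3 without clone C11 and 0 without the block. The median change over X-linked genes was -1.24 in WT, -0.85 in XistDelm6A/T1_11C and -0.10 in XistDelA on the same log2 scale.

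Each gene's change was also tested against the median of the readable X-linked genes, which asks whether it lost less than its chromosome and not whether it escapes. In WT all 3 members stood above it. Kdm6a was 1.04 ± 0.15 higher on the log2 scale (edgeR, Benjamini-Hochberg adjusted p = 5.5e-09, above in 1 of 1 pair), Ddx3x 0.79 ± 0.16 (edgeR, Benjamini-Hochberg adjusted p = 7.0e-05, above in 1 of 1 pair). Eif2s3x was 1.20 ± 0.19 higher (edgeR, Benjamini-Hochberg adjusted p = 7.0e-08, above in 1 of 1 pair). In XistDelm6A/T1_11C all 3 again passed. Kdm6a was 0.66 ± 0.11 above the median (edgeR, Benjamini-Hochberg adjusted p = 1.9e-07), Ddx3x 0.53 ± 0.12 (edgeR, Benjamini-Hochberg adjusted p = 4.9e-04) and Eif2s3x 0.53 ± 0.16 (edgeR, Benjamini-Hochberg adjusted p = 0.00882), each in 2 of 2 pairs. Genes called above the median made up 32 of 319 X-linked genes in WT (10.0%) and 29 in XistDelm6A/T1_11C (9.09%), against 3 of 3 members in both. The members were chosen as known escapees, with earlier results of these data known, so this count describes them and is no independent check.

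In XistDelA, where the chromosome as a whole moved little, 0 of 3 members and 0 of 319 X-linked genes (0%) were called above the median by edgeR, with 1 member, Eif2s3x, at an unadjusted p under 0.05. Its value was 0.29 (95% interval 0.07 to 0.51, edgeR, Benjamini-Hochberg adjusted p = 0.399), above the median in 3 of 3 clones. Kdm6a gave 0.08 (-0.09 to 0.25) and Ddx3x 0.14 (-0.05 to 0.33). Across the settings tried, the 3 WT calls held, without the block too. In XistDelm6A/T1_11C Eif2s3x was 0.38 without the first pair (adjusted p = 0.3, edgeR, Benjamini-Hochberg), and 11 X-linked genes were then called. The error of the median itself is not part of these p-values.

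**Figure D2:**
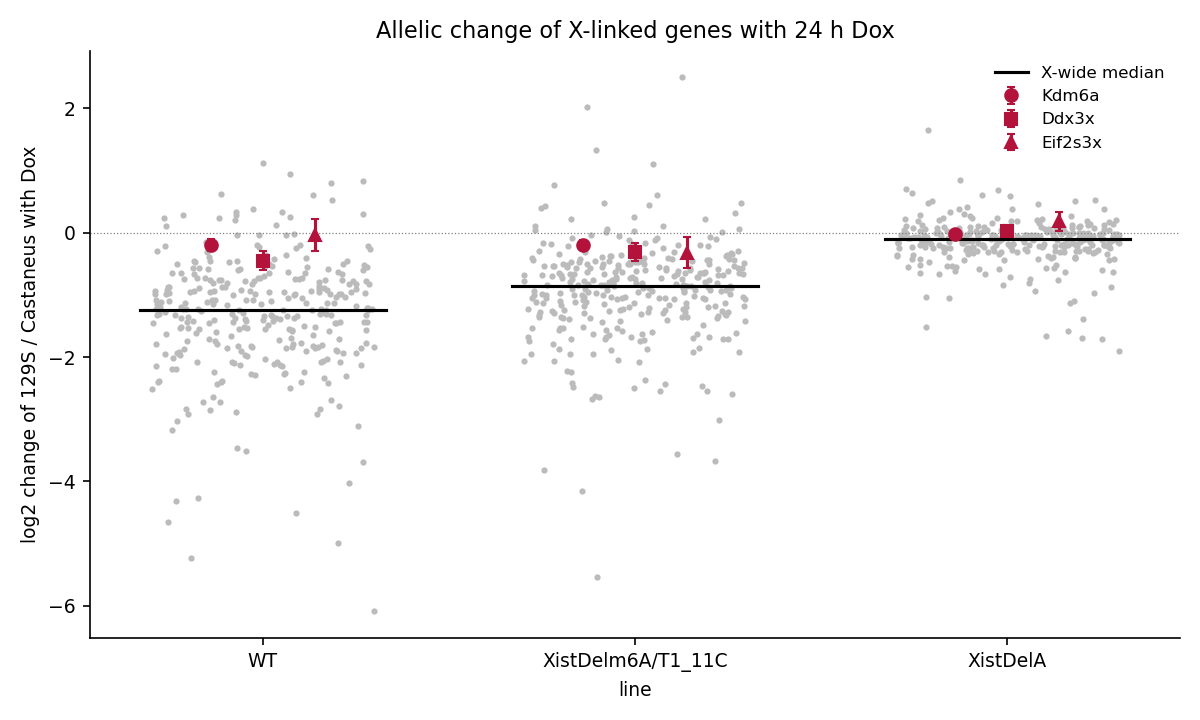
Change with Dox in the log2 ratio of 129S to Castaneus counts (y axis) for each of the 319 readable X-linked genes (grey points, spread sideways for sight) in the 3 lines (x axis); black bars are the X-wide medians and red symbols Kdm6a, Ddx3x and Eif2s3x with 95% intervals. The medians are -1.24, -0.85 and -0.10, and the members lie above the bar in WT and XistDelm6A/T1_11C.

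Whether a deletion in Xist altered a member's loss is a difference between lines, tested as such; these comparisons share lines and are not independent. For Ddx3x the change in XistDelA was 0.48 ± 0.09 higher than in WT (edgeR, Benjamini-Hochberg adjusted p = 2.5e-05), with 3 of 3 clones above the WT pair. It was 0.35 ± 0.08 higher than in XistDelm6A/T1_11C (edgeR, Benjamini-Hochberg adjusted p = 0.00589), with 3 of 3 clones above both pairs. Both Ddx3x calls ended without the block (0.49 and 0.36, adjusted p = 1 by edgeR with Benjamini-Hochberg), and the second ended without the first XistDelm6A/T1_11C pair (0.22, adjusted p = 0.56). The kept share of the helicase gene was thus higher where the A-repeat was absent, in the blocked fit.

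Kdm6a differed by 0.17 ± 0.06 between XistDelA and WT (95% interval 0.06 to 0.28, edgeR, Benjamini-Hochberg adjusted p = 0.208). Against XistDelm6A/T1_11C the Kdm6a difference was again 0.17 ± 0.05 (0.07 to 0.26, edgeR, Benjamini-Hochberg adjusted p = 0.0728). Eif2s3x differed by 0.22 from WT (-0.07 to 0.52, edgeR, Benjamini-Hochberg adjusted p = 0.906) and by 0.51 from XistDelm6A/T1_11C (0.21 to 0.80, edgeR, Benjamini-Hochberg adjusted p = 0.065). With 1 of 3 members called in each comparison, X-linked genes were called higher in XistDelA than in WT at 44.2% (141 of 319, 47 without the block). Against XistDelm6A/T1_11C the share was 39.5% (126 of 319, 30 without the block and 64 without the first XistDelm6A/T1_11C pair). The missed threshold does not show that Kdm6a responded alike in these lines, since its interval from WT ran from 0.06 to 0.28.

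Between XistDelm6A/T1_11C and WT, 0 of 3 members were called by edgeR and 0 reached an unadjusted p under 0.05, against 29 of 319 X-linked genes called higher (9.09%, 0 without the block and 17 without the second XistDelm6A/T1_11C pair). The difference was 0.00 for Kdm6a (95% interval -0.12 to 0.13), 0.14 for Ddx3x (-0.07 to 0.35) and -0.28 for Eif2s3x (-0.64 to 0.07). The allelic fits were made with edgeR alone.

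The genes next to the readable members had larger drops in share than the members in WT, but not all of these drops were called. By allele in WT, Fundc1 (-0.45 on the log2 scale), Chst7 (-1.08) and Nyx (-0.98) did not pass the threshold. The WT difference in 129S share, with Dox minus without, was -15.6 points for Usp9x, a deubiquitinase gene that starts 209.5 kb from Ddx3x, and -7.69 points for Ddx3x. Around Eif2s3x, itself at -0.618 points, the transcription factor gene Zfx (89.2 kb from start to start) stood at -20.8 and Klhl15 (22.3 kb) at -31.3 points. Fundc1, the nearest readable gene below Kdm6a at 590.4 kb, stood at -7.62 points and Chst7 above it at 1897 kb at -18.2, against -3.38 for Kdm6a. Among each member and its 2 neighbours, the member had the smallest loss in WT. Nyx, the other neighbour of Ddx3x, had 39 and 27 total counts in that pair, and Chst7 had 201 and 172. Low loss was not limited to the members, since Fundc1 stood 0.78 above the X-wide median in WT (edgeR, Benjamini-Hochberg adjusted p = 0.00896, 1 of 1 pair), close to the 0.79 of Ddx3x. Usp9x stood 0.39 above it in XistDelm6A/T1_11C (edgeR, Benjamini-Hochberg adjusted p = 0.00237, 2 of 2 pairs). No test between neighbours was made.

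The same order held in the first XistDelm6A/T1_11C pair, where Eif2s3x stood at -5.06 points, Zfx at -15.0 and Klhl15 at -22.8. In the second, Ddx3x (-3.13) and Usp9x (-4.99) were close to each other, and Nyx stood at 16.7 points on 14 and 11 total counts. Kdm6a, at -3.41 points there, lost less than Fundc1 (-5.30) and Chst7 (-13.4). In the XistDelA clones Zfx stood at -4.10, -1.75 and -3.02 points and its neighbour Eif2s3x at 3.87, 4.02 and 1.56. Klhl15 stood at -4.32, 0.849 and -1.09. Fundc1, at 4.26, -0.423 and 4.12, was above Kdm6a (0.552, -0.442 and -1.34) in C1 and C11 and level with it in 2C2, and Chst7 stood at -2.77, 3.92 and 13.6 on few counts (171 and 161 in C11). Nyx, with at most 46 counts in a XistDelA library, stood at -20.5, -47.7 and -17.6.

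**Figure D3:**
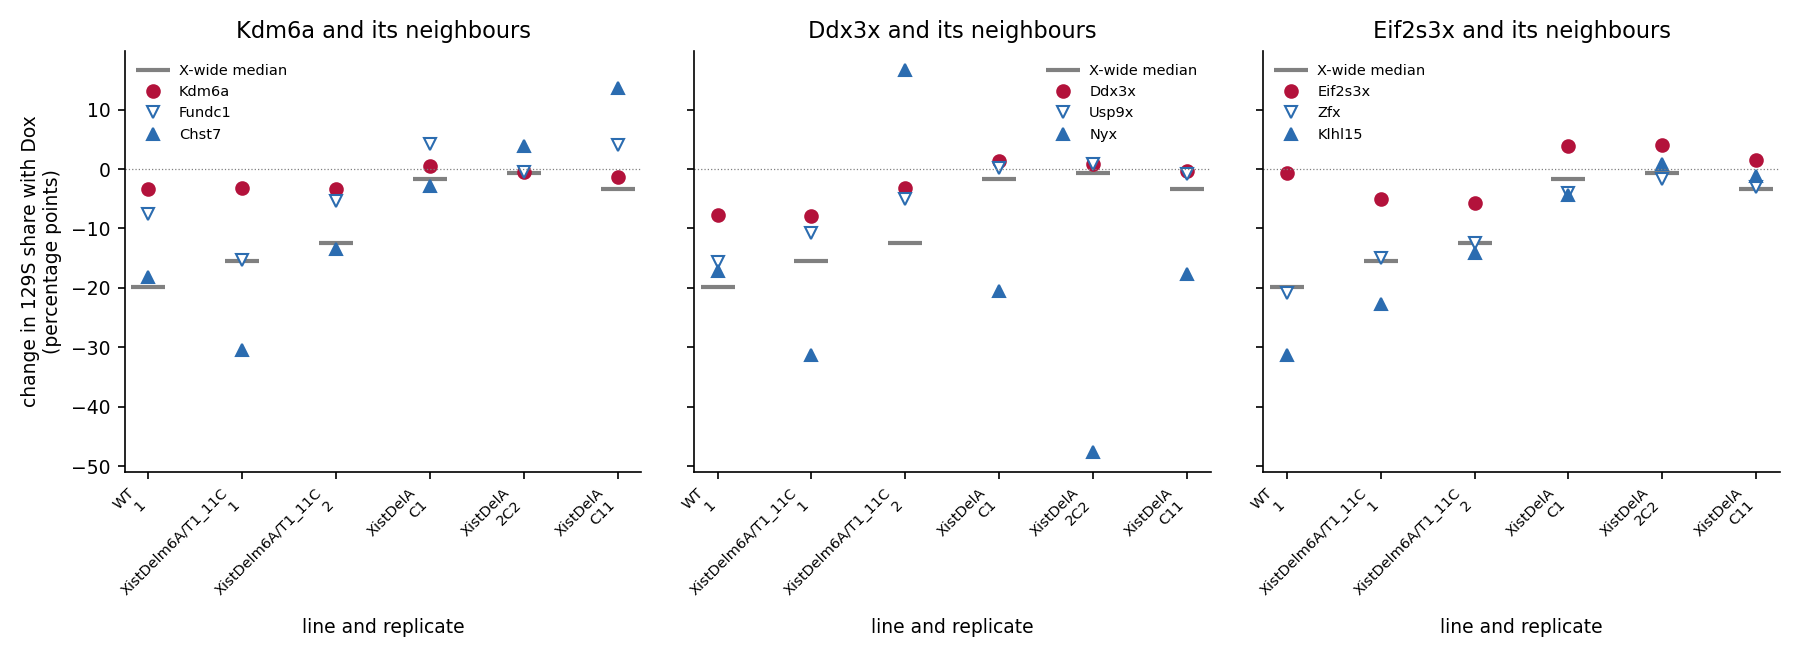
Change in 129S share with Dox (y axis, percentage points) in each of the 6 pairs (x axis) for Kdm6a, Ddx3x and Eif2s3x (red circles), the nearest readable gene on each side (blue triangles, open for the lower coordinate) and the X-wide median (grey bars). In WT Eif2s3x is at -0.618 points and Klhl15 at -31.3.

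The level of each copy was compared with no test. In WT Ddx3x went from 69.3 to 47.6 CPM on 129S and from 72.9 to 68.3 on Castaneus. Relative to the median autosomal gene of the pair, that is a log2 difference of -0.58 on 129S and -0.13 on Castaneus. In XistDelA the Ddx3x difference was alike on both chromosomes, with a mean of -0.27 ± 0.08 on 129S and -0.31 ± 0.09 on Castaneus (SD, n = 3), so that both copies were lower by a like amount and the share stood near its start. Kdm6a in WT gave -0.09 on 129S and 0.10 on Castaneus, and in XistDelm6A/T1_11C a mean of -0.21 (-0.37 and -0.04) on 129S and -0.02 (-0.19 and 0.16) on Castaneus. Eif2s3x in XistDelA gave a mean of 0.08 ± 0.08 on 129S and -0.12 ± 0.09 on Castaneus.

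Total counts cover all 6 members, including the 3 distal ones. Per kb of gene span, the mean level over the 12 libraries was 58.2 CPM for Ddx3x, a level above 99.4% of 470 X-linked genes. Kdm6a followed with 6.95, Kdm5c with 5.05, Pbdc1 with 3.97, Eif2s3x with 3.83 and 5530601H04Rik with 3.25, where the median X-linked gene stood at 1.49. Only the place of Ddx3x was clear of the spread, its lowest library being at 25.1 and the highest of any other member at 8.37; Pbdc1 (2.83 to 5.08), Eif2s3x (2.71 to 4.64) and 5530601H04Rik (2.73 to 3.80) overlapped. Without Dox, Ddx3x stood at 71.0 in WT, 42.6 ± 6.38 in XistDelm6A/T1_11C (n = 2) and 78.0 ± 7.81 in XistDelA (n = 3), and Eif2s3x at 4.64, 2.95 ± 0.341 and 4.37 ± 0.415. Of the 6 members 5 had their lowest uninduced mean in XistDelm6A/T1_11C, where the non-coding 5530601H04Rik had its highest (3.23, 3.76 ± 0.0506 and 3.0 ± 0.313 in the same order of lines). Uninduced lines were not compared by a test.

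Kdm5c, the distal demethylase gene, stood at 262 CPM in WT without Dox and 193 with Dox. In XistDelm6A/T1_11C it went from 221 to 183 and from 245 to 192. In XistDelA it was 249 and 239.8 in C1, 246 and 249 in 2C2, and 254 and 244 in C11. The 3 induced libraries of lines with the A-repeat in place were the 3 lowest of the 12.

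Ddx3x went from 920.3 to 696 CPM in WT, from 494 to 326 and from 611 to 574 in XistDelm6A/T1_11C, and in XistDelA from 940.4 to 752, 1127 to 837 and 967 to 810.2. Pbdc1 went from 171 to 135 in WT, from 123 to 106 and 149 to 136 in XistDelm6A/T1_11C, and from 158 to 135, 176 to 141 and 189.8 to 156 in XistDelA. Both genes were thus lower with Dox in 6 of 6 pairs. The neighbour of Pbdc1, 5530601H04Rik, went from 94.6 to 83.0 in WT, from 111 to 93.8 and 109 to 101 in XistDelm6A/T1_11C, but from 85.7 to 95.6, 80.0 to 90.8 and 97.9 to 99.6 in XistDelA. Kdm6a ranged from 489 to 977 CPM over the 12 libraries and Eif2s3x from 64.8 to 111, each lowest in a XistDelm6A/T1_11C library.

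**Figure D4:**
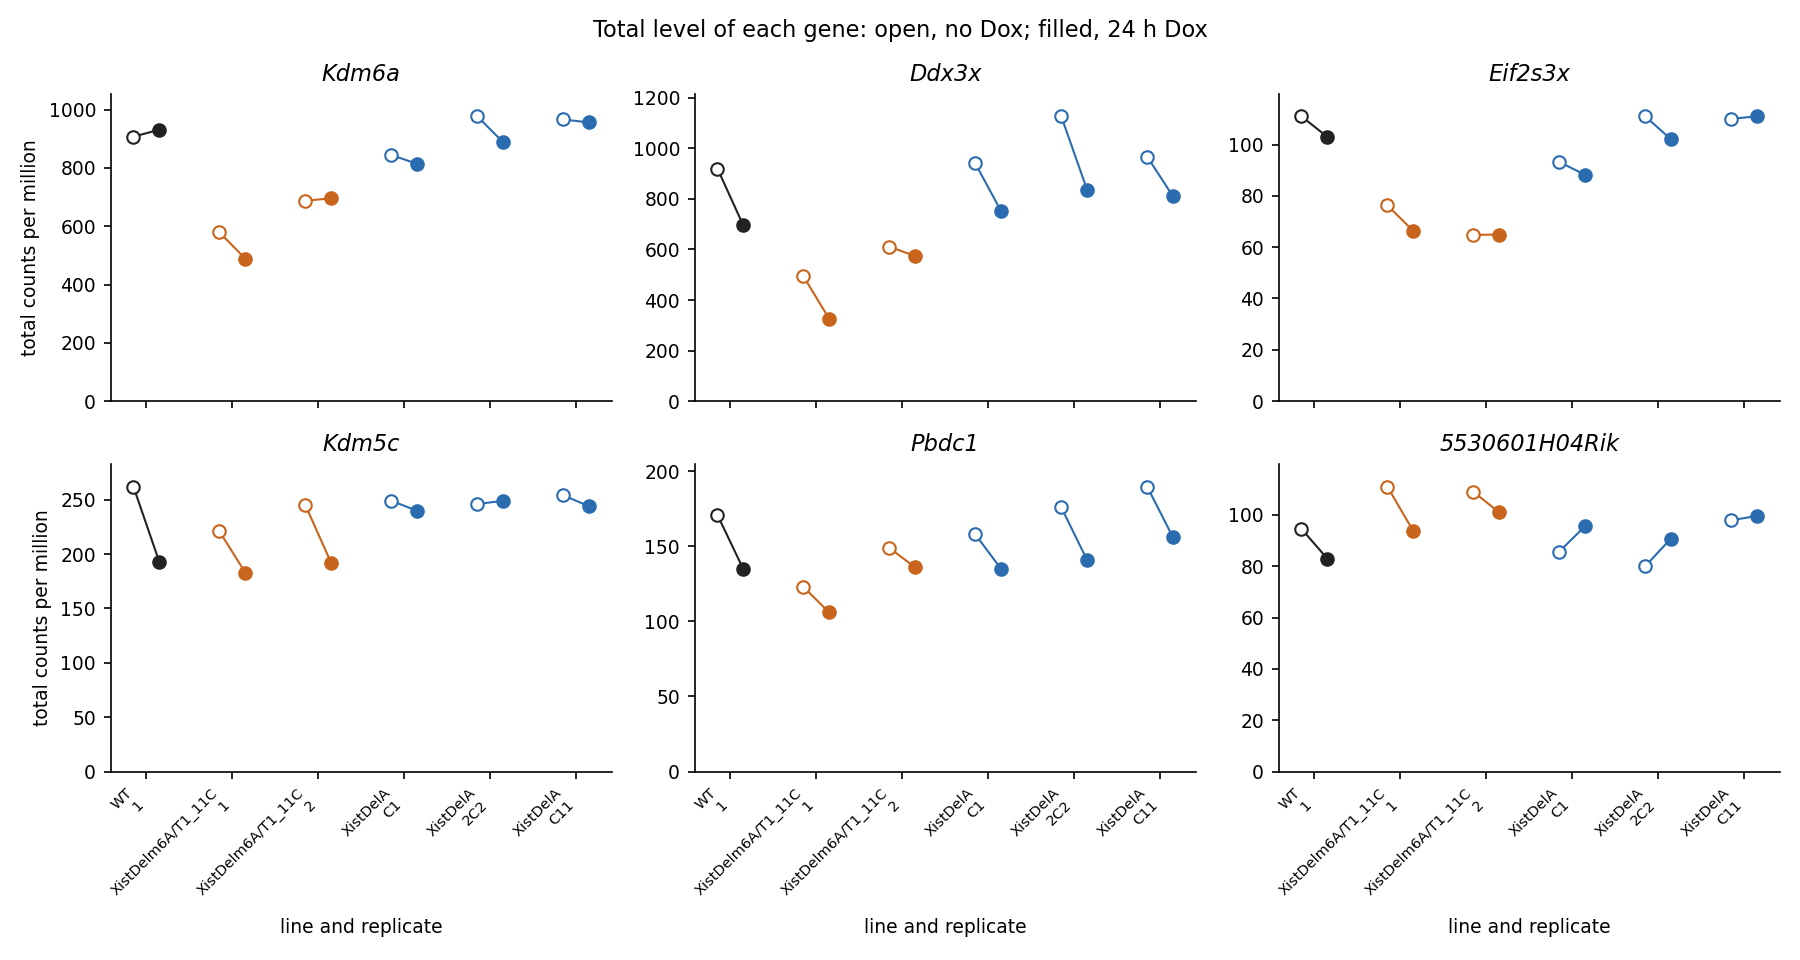
Total level of each of the 6 members (y axis, CPM, from 0) in each pair of libraries (x axis, line and replicate); open points are without Dox, filled points after 24 h of Dox, joined within a pair. Kdm5c goes from 262 to 193 in WT and from 249 to 239.8 in XistDelA C1.

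In XistDelA 2 members fell in total. Ddx3x changed by -0.37 ± 0.11 on the log2 scale (edgeR, Benjamini-Hochberg adjusted p = 0.0353, lower in 3 of 3 clones). Pbdc1 changed by -0.31 ± 0.07 (edgeR, Benjamini-Hochberg adjusted p = 0.0151, lower in 3 of 3 clones). The 2 of 6 members called stand against 95 of 638 X-linked genes called lower (14.9%) and 780 of 15613 autosomal genes (5.00%). Neither call held without the block (adjusted p = 0.88 for Ddx3x and 0.86 for Pbdc1, edgeR, Benjamini-Hochberg), nor without any 1 of the 3 clones, where adjusted p ran from 0.11 to 0.35 for Ddx3x and from 0.091 to 0.26 for Pbdc1. The X-linked count was then 0, and 12, 12 and 31 without C1, 2C2 and C11, but 190 and 192 without the first and second XistDelm6A/T1_11C pair and 186 in a fit of XistDelA alone.

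In WT 0 of 6 members were called in total by edgeR, 3 of them at an unadjusted p under 0.05. DESeq2, whose X-linked share is not given here, called 1, Kdm5c. The Kdm5c estimate was -0.47 (95% interval -0.73 to -0.22, edgeR, Benjamini-Hochberg adjusted p = 0.0825), that of Ddx3x -0.44 (-0.82 to -0.05, edgeR, Benjamini-Hochberg adjusted p = 0.418) and that of Pbdc1 -0.38 (-0.65 to -0.10, edgeR, Benjamini-Hochberg adjusted p = 0.251). Kdm6a gave 0.00 (-0.33 to 0.33), Eif2s3x -0.15 (-0.44 to 0.15) and 5530601H04Rik -0.22 (-0.51 to 0.06). Of X-linked genes 20.7% were called lower (132 of 638) and of autosomal genes 0.205%; the X-linked median was -0.57. Leaving out either XistDelm6A/T1_11C pair brought Kdm5c, Ddx3x and Pbdc1 past the threshold in WT, with 326 and 338 X-linked genes. Without an XistDelA clone the X-linked count was 79, 87 and 72 for C1, 2C2 and C11, without the block 0, and with no count filter 202.

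In XistDelm6A/T1_11C 0 of 6 members were called by edgeR, 2 of them at an unadjusted p under 0.05. DESeq2, whose X-linked share is not given here, again called Kdm5c alone. Its edgeR estimate was -0.30 (95% interval -0.48 to -0.12, edgeR, Benjamini-Hochberg adjusted p = 0.0765), lower in 2 of 2 pairs, and that of Ddx3x -0.33 (-0.61 to -0.06, edgeR, Benjamini-Hochberg adjusted p = 0.22). Pbdc1 and 5530601H04Rik each gave -0.17, Kdm6a -0.10 and Eif2s3x -0.09. X-linked genes were called lower at 39.5% (252 of 638) and autosomal genes at 1.06%. The 2 pairs differed, with Ddx3x at -0.67 and -0.03 relative to the median autosomal gene. Without the second pair 6 of 6 members and 391 X-linked genes were called, and without the first 1 member, Kdm5c; the X-linked count was 145 in a fit of the line alone and 0 without the block.

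The differences between lines in total change gave no call for a member. Between XistDelA and WT the Kdm5c difference was 0.41 (95% interval 0.11 to 0.71, edgeR, Benjamini-Hochberg adjusted p = 0.767), the 1 member of 6 at an unadjusted p under 0.05, where 0.157% of X-linked genes were called (1 of 638). Without either XistDelm6A/T1_11C pair Kdm5c passed, with 171 and 168 X-linked genes, and the X-linked count was 28 with no count filter, 17 by DESeq2 and 0 without the block. Between XistDelA and XistDelm6A/T1_11C the 5530601H04Rik difference of 0.26 (0.00 to 0.52) was the 1 member of 6 at an unadjusted p under 0.05 (edgeR, Benjamini-Hochberg adjusted p = 0.404), with 9.40% of X-linked genes called (60 of 638). There Ddx3x passed at -0.34 without the first XistDelm6A/T1_11C pair and at 0.31 without the second, so the sign rests on which pair is kept, and 5530601H04Rik passed at 0.41 without the second. The X-linked count was then 121 and 291, was 10, 10 and 25 without C1, 2C2 and C11, and 0 without the block. Between XistDelm6A/T1_11C and WT 0 of 6 members and 0 of 638 X-linked genes (0%) were called, with 0 members at an unadjusted p under 0.05, and 25 and 1 X-linked genes without the first and second XistDelm6A/T1_11C pair. DESeq2 called 0 members in these 3 comparisons.

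Of the 2 neighbours of Kdm5c, 1 was called in total, in 2 of 3 lines. In WT Iqsec2 gave -0.37, not past the threshold, beside -0.47 for Kdm5c. Iqsec2, next to Kdm5c at 89.0 kb, fell by 0.59 on the log2 scale in XistDelm6A/T1_11C (edgeR, Benjamini-Hochberg adjusted p = 0.0174, 2 of 2 pairs). Without the block 0 X-linked genes were called lower in total in that line, so this call ended there. In XistDelA Iqsec2 rose by 0.40 (edgeR, Benjamini-Hochberg adjusted p = 0.0246, 3 of 3 clones), where Kdm5c gave -0.06 (-0.21 to 0.09). On the other side of Kdm5c, 2900056M20Rik gave -0.33 in WT, -0.20 in XistDelm6A/T1_11C and 0.20 in XistDelA, none past the threshold. Magee1, beside Pbdc1, and Magee2, beside 5530601H04Rik, had at most 76 and 12 counts in a library.

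Lists of other X-linked genes stand beside the members. Of the 319 readable X-linked genes, 52.0% were called lower by allele in WT, 53.3% in XistDelm6A/T1_11C and 5.33% in XistDelA. Of 4 genes that have a Y homologue but are usually silenced in mouse (Uba1, Usp9x, Zfx and Rbmx), 4 fell by allele in WT and 4 in XistDelm6A/T1_11C, and 0 in XistDelA. Their median log2 change was -1.07, -0.64 and -0.10, against -0.20, -0.31 and 0.03 for the 3 members and -1.24, -0.85 and -0.10 for the X. Of 10 genes reported to escape in some tissues, 8 were in the files and 3 readable (Utp14a, Shroom4 and 1810030O07Rik), and 3 fell in WT, 3 in XistDelm6A/T1_11C and 0 in XistDelA. Against the X-wide median, 2 of these 3 were called above it in WT and 1, Utp14a, in XistDelm6A/T1_11C, by edgeR with Benjamini-Hochberg adjustment. Of the 4 usually silenced genes, 1 was called above it in WT (Uba1, 0.67, edgeR, Benjamini-Hochberg adjusted p = 0.00289), 1 below it (Rbmx, -0.66, edgeR, Benjamini-Hochberg adjusted p = 0.0133), and 2 above it in XistDelm6A/T1_11C, Uba1 (0.40, edgeR, Benjamini-Hochberg adjusted p = 0.0184) and Usp9x, so this trait of the members was shared by some genes of both lists. The non-coding Tsix and Firre were called lower in all 3 lines. In XistDelA, however, the Firre share changed by -0.842, -0.942 and -8.77 points in C1, 2C2 and C11, so that C11 carried most of it. C11 also stood apart in total levels of listed genes. Its Mid1 level was 9358 CPM without and 10386 with Dox, against 496 to 633 in the other libraries. Its level of the autosomal Kdm5a was 425 and 419.9, against 208 to 308. The part of this in the results for XistDelA was not tested. Without the block 0 X-linked genes were called lower by allele in XistDelA, so neither the Tsix nor the Firre call held there. Firre fell by 2.79 in WT, and Tsix fell by 0.75 in XistDelA, where 0 of the 3 members passed.

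The members' Y-linked homologues were near 0, and the cells are labelled female. Uty, Kdm5d, Ddx3y and Eif2s3y gave 43, 12, 2 and 0 counts summed over the 12 libraries. Of 9 autosomal paralogues and partners, among them Kdm6b, Kdm5a and Kdm5b and the other eIF2 subunit genes Eif2s1 and Eif2s2, 0 passed in any line, by allele or in total, by edgeR; their median total change was -0.09 in WT, -0.02 in XistDelm6A/T1_11C and -0.09 in XistDelA.

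The genes most like the readable members, by distance over the 6 pairs from the members' mean change in share, were Rpgr (3.99 points), Nkap (4.99) and Rbm3 (5.65), where the median of 315 X-linked genes was 29.4. By log2 change of total level, Tfe3 (0.117) and Piga (0.173) came closest to Kdm5c, against a median of 0.803 over 632 genes. Closest to Pbdc1 were Cstf2 (0.178) and Dkc1 (0.233), with a median of 0.981, and to 5530601H04Rik Tmem29 (0.155) and Msl3 (0.165), with a median of 1.03. This is a ranking with no test.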

How the data were processed

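The authors sequenced stranded chromatin RNA in paired ends and deposited counts of read pairs per gene over whole mm10 gene spans, introns included (Bowtie2 2.3.2 and STAR 2.4.2a per the labels, featureCounts 1.5.2 per the file headers), in total and by parental genome. The 12 deposited libraries were used as they are, grouped by label. Genes were named by rule: the 6 members, Xist, the X-linked, Y-linked and autosomal lists, nearest neighbours and nearest genes by pattern. The members and lists were chosen with earlier results of these data known.

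Allelic counts were fitted with edgeR 4.0.16 in R 4.3.3 (quasi-likelihood, all 12 libraries, a term per library, the pair as replicate block, an allele by Dox term per line), for the 13181 genes that averaged 10 or more allelic counts and whose 129S share without Dox lay from 0.1 to 0.9, 319 of them X-linked. The comparison with the X-wide median was adjusted over those 319. Total counts were fitted with TMM, pair as block, for 16254 genes (minimum count 10, 638 X-linked without Xist). The threshold was a Benjamini-Hochberg adjusted p of 0.05. Wilson intervals came from scipy 1.17.1 in Python 3.11.15; code was tested on simulated data. Pairing follows the labels and was checked once: residual total levels correlated within labelled pairs (r = 0.37 to 0.691 over 16254 genes). Alternatives were no block, other count and share filters, separate fits per line, other size factors, DESeq2 1.42.0, and leaving out each replicate. No sample was left out.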

Additional observations from a re-analysis of the deposited data

Results flagged for a closer look

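Lines differed in the allelic change of Ddx3x with Dox when the difference itself was tested by edgeR with Benjamini-Hochberg adjustment. It was 0.48 higher on the log2 scale in XistDelA than in WT (adjusted p = 2.5e-05, 3 of 3 clones above the WT pair) and 0.35 higher than in XistDelm6A/T1_11C (adjusted p = 0.0059, 3 of 3 clones above both pairs). Neither call held without the replicate block (adjusted p = 1 for both), and the second did not hold without the first XistDelm6A/T1_11C pair (0.22, adjusted p = 0.56). The same test singled out 9 of the 9 readable listed X-linked genes that are not escapee members between XistDelA and WT. It picked out 4 of the 9 between XistDelm6A/T1_11C and WT (Usp9x, Rbmx, Tsix and Firre) and 8 of the 9 between XistDelA and XistDelm6A/T1_11C. Over all 319 readable X-linked genes the shares called higher were 44.2%, 9.09% and 39.5% in the same order. Without the block the counts of X-linked genes called higher were 47, 0 and 30. The 4 calls between XistDelm6A/T1_11C and WT thus ended without it. In XistDelA Xist RNA was also lower, and its part in these differences was not tested.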

How the results depend on the processing

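Over the alternatives run, 3 of 3 readable members stayed above the X-wide median in WT. In XistDelm6A/T1_11C 2 to 3 did, with Eif2s3x lost without the first pair. X-linked genes called above it ran from 24 to 35 in WT and from 11 to 28 in XistDelm6A/T1_11C. The allelic count in XistDelA stayed at 0 members, beside 0 to 18 X-linked genes called lower. Without the replicate block, 0 members were called lower by allele in WT and 0 in XistDelm6A/T1_11C, 0 were called in the differences of XistDelA from WT and from XistDelm6A/T1_11C, and 0 were called in XistDelA totals. X-linked genes called without it were 92, 87, 47 and 30 by allele, in the same order, and 0 in XistDelA totals. The cause of these drops was not tested. By DESeq2, total counts gave 1 of 6 members in WT and 1 in XistDelm6A/T1_11C, Kdm5c in both. The X-linked share by DESeq2 is not given here, so these calls do not set Kdm5c apart from the X. By edgeR, 20.7% and 39.5% of X-linked genes were called lower in total in these lines.

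Leaving out 1 pair at a time moved several counts of members. By allele, XistDelm6A/T1_11C gave 1 to 2 and its difference from XistDelA 0 to 1. Over all alternatives, X-linked genes called there ran from 87 to 167 and from 30 to 126 (170 and 126 of 319 in the main fit). In totals, WT gave 0 to 3, XistDelm6A/T1_11C 0 to 6 and XistDelA 0 to 2. X-linked genes called lower ran, in the same order, from 0 to 338, 0 to 391 and 0 to 192 over all alternatives. The main fit called 132, 252 and 95 of 638. The total differences gave 0 to 1 for XistDelA from WT and 0 to 2 for XistDelA from XistDelm6A/T1_11C. X-linked genes called different there ran from 0 to 171 and from 0 to 291. With a pair left out, counts moved up as well as down, and why was not tested.

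Some estimates lay at 0 or moved across it. The Kdm6a total change in WT, 0.00, has no clear sign; it was 0.00 with DESeq2 size factors and by DESeq2 and -0.01 with TMM over autosomal genes. Its total difference between XistDelA and XistDelm6A/T1_11C, likewise 0.00, was -0.04 without the block, -0.01 with DESeq2 size factors, -0.02 with no count filter and -0.01 by DESeq2. With 1 pair left out that difference ran from -0.18 to 0.22, that of Ddx3x from -0.34 to 0.31 and that of Eif2s3x from -0.17 to 0.18. Total changes in XistDelm6A/T1_11C ran from -0.32 to 0.09 for Kdm6a and from -0.28 to 0.07 for Eif2s3x. Total differences of that line from WT ran from -0.33 to 0.08 for Kdm6a, -0.25 to 0.41 for Ddx3x, -0.14 to 0.22 for Eif2s3x and -0.10 to 0.18 for 5530601H04Rik. By allele, Kdm6a in XistDelA ran from -0.05 to 0.00, and its difference between XistDelm6A/T1_11C and WT stayed at 0.00 to 0.01. For Ddx3x that difference ran from -0.02 to 0.27. Ddx3x passed the threshold at both ends of its total difference between XistDelA and XistDelm6A/T1_11C. The causes were not tested.

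Among the 3 readable members Eif2s3x had the fewest allelic counts, 421 to 1327 per library, where Kdm6a had 5563 to 12565.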
